A study of Rattus norvegicus with 45 samples.

Results

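Cntfr and Il17ra, which encode the ligand-binding chain of the ciliary neurotrophic factor (CNTF) receptor and the common chain of the interleukin-17 receptors, were followed in the ventral tegmental area (VTA) of rats in abstinence from heroin self-administration (SA). The pair is 2 of the 32883 Ensembl genes with deposited values, and both were among the 22570 genes tested. Cntfr was taken by its identifier, ENSRNOG00000047307, and Il17ra by its symbol, which corresponds to ENSRNOG00000011153. On rn6, Cntfr lies on the minus strand at chr5:58041145-58078545 and Il17ra on the plus strand at chr4:152995864-153018394, and both are annotated as protein coding.

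All animals were wild-type male Sprague-Dawley rats of unstated age with jugular catheters, which self-administered saline or heroin for 10 d, received a vector into the VTA on day 11 and were killed after 30 d of abstinence. The vector was either empty (green fluorescent protein, GFP, alone), H3.3 WT (histone H3.3) or H3.3Q5A (H3.3 with glutamine at position 5 replaced by alanine, which cannot be dopaminylated), and every vector carried GFP. Each library held polyA RNA from punches of fluorescent VTA tissue of 1 rat, with 7 rats for each vector after saline, and 8 empty, 7 H3.3 WT and 8 H3.3Q5A rats after heroin. A punch holds transduced and untransduced cells of several kinds, so that fewer cells of a type and less RNA per cell cannot be told apart. The vector is described as AAV2 in the methods and as lentiviral in the series description, and its H3.3Q5A protein is described there from earlier work as made in the nuclei of adult neurons. The cells transduced in these punches were not examined here.

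CNTF receptor alpha is held on the cell surface by a lipid anchor and has no signaling domain of its own. On binding CNTF or related ligands it joins gp130 (Il6st) and the LIF receptor (Lifr), which activate JAK kinases and STAT3, and in the brain it is known chiefly as a neuronal receptor for a survival factor. IL-17RA pairs with other chains of its family to bind IL-17 cytokines, signals through the adaptor Act1 (Traf3ip2) and TRAF6 to NF-kB, and is made by many cells, among them glia, endothelium and immune cells.

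The libraries held 24308953 to 71104049 reads on genes (median 42574786). Cntfr had 1733 to 8959 reads and Il17ra 579 to 2261 reads per library. The values below are the deposited variance-stabilized counts, which run on a log2-like scale, and differences between them are given as log2 fold changes. They are not divided by transcript length, and the levels of the pair are therefore not compared with each other. No marker of dopamine neurons, other neurons or astrocytes could be named in the tables used here, nor either H3.3 gene, so the labelled tissue and the transgene were not checked.

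Cntfr varied widely from rat to rat and was highest, on average, in saline rats given H3.3 WT. Over the 44 rats its value ran from 11.32 in heroin empty rat 16 to 12.72 in saline H3.3 WT rat 49, a range of 1.41 or 2.65-fold. Scaled to the library totals, those rats had 60.3 and 159 CPM of Cntfr.

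In saline empty rats Cntfr was at 11.34 at the lowest, 11.94 at the median and 12.04 at the highest (mean ± SD 11.80 ± 0.28, n = 7). Among saline H3.3 WT rats the lowest was 11.72, the median 12.32 and the highest 12.72 (12.22 ± 0.34, n = 7). In saline H3.3Q5A rats the values were 11.70, 12.17 and 12.37 in the same order (12.08 ± 0.27, n = 7). Of the 7 saline H3.3 WT rats, 6 were above the saline empty mean, yet the groups overlapped: rats 27 and 4 lay within the empty range. Heroin empty rats ran from 11.32 through a median of 11.74 to 12.36 (11.78 ± 0.33, n = 8). Heroin H3.3 WT rats ran from 11.59 through 11.93 to 12.40 (11.93 ± 0.31, n = 7). Heroin H3.3Q5A rats ran from 11.60 through 11.91 to 12.10 (11.89 ± 0.17, n = 8). The 3 heroin groups covered much the same values, and the H3.3Q5A rats spread least.

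Ordered by mean, Cntfr was highest in saline H3.3 WT rats, followed by saline H3.3Q5A, heroin H3.3 WT, heroin H3.3Q5A, saline empty and heroin empty rats. No neighbours in that order differed by more than the larger of their SDs, and each pair of neighbours overlapped. The first and the last group were 0.44 apart, against group SDs of 0.17 to 0.34.

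Il17ra spanned a narrower range, 0.71 or 1.64-fold over the 44 rats, from 9.92 in saline empty rat 22 to 10.64 in heroin H3.3Q5A rat 21. In saline empty rats it was at 9.92, 10.09 and 10.18 at the lowest, the median and the highest (10.07 ± 0.087, n = 7). In saline H3.3 WT rats it was at 10.04, 10.24 and 10.45 (10.26 ± 0.15, n = 7). As with Cntfr, 6 of the 7 H3.3 WT rats were above the saline empty mean and the ranges overlapped. Saline H3.3Q5A rats were at 10.07, 10.16 and 10.32 (10.19 ± 0.084, n = 7), and all 7 exceeded that mean.

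Heroin empty rats held Il17ra at 9.93, 10.08 and 10.24 (10.07 ± 0.093, n = 8), and heroin H3.3 WT rats at 9.95, 10.15 and 10.32 (10.13 ± 0.14, n = 7). Heroin H3.3Q5A rats held it at 10.06, 10.18 and 10.64 (10.23 ± 0.18, n = 8). The highest of these, rat 21 with 35.99 CPM, stood apart, since the other 7 lay between 10.06 and 10.25. By mean, the order was saline H3.3 WT, heroin H3.3Q5A, saline H3.3Q5A, heroin H3.3 WT, heroin empty and saline empty. Again no neighbours differed by more than the larger SD, and the ends of the order were 0.19 apart against SDs of 0.084 to 0.18.

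**Figure D1:**
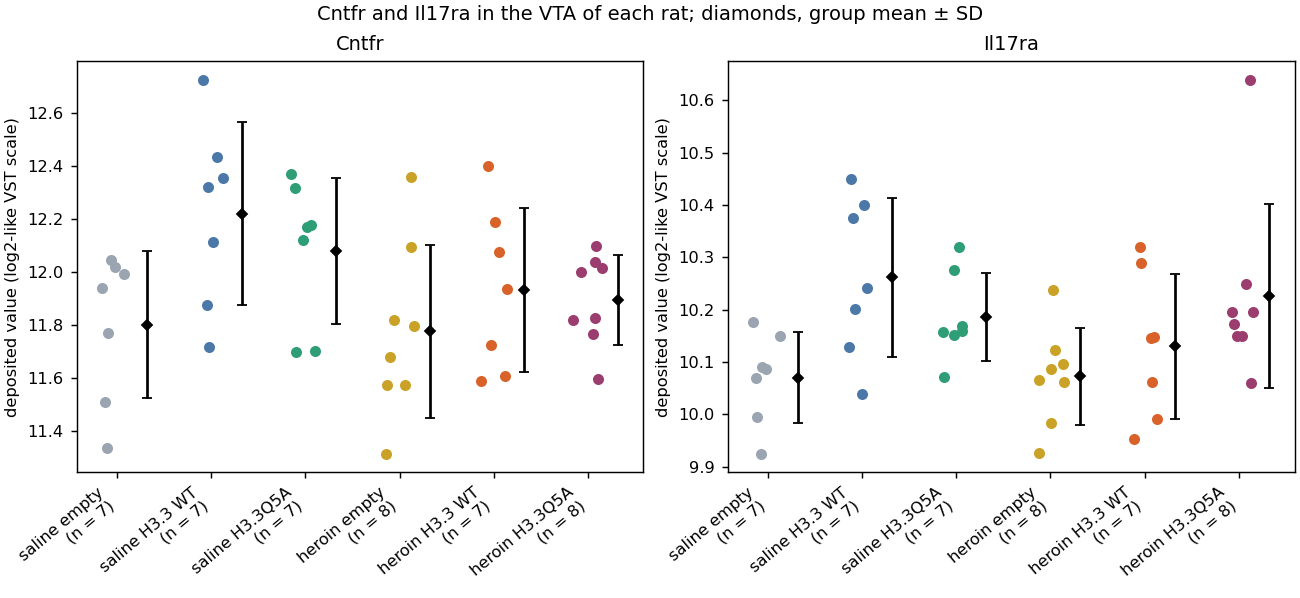
Deposited values (log2-like scale, y axis) of Cntfr (left) and Il17ra (right) in each of 44 rats, by drug and vector on the x axis, with diamonds and bars for the group mean ± SD. Saline H3.3 WT rats have the highest mean of both genes (12.22 and 10.26), all groups overlap with their neighbours in the order of means, and heroin H3.3Q5A rat 21 lies above all other rats for Il17ra at 10.64.

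Whether the group levels differed at all was tested over the 6 groups with limma's F test, with Benjamini-Hochberg adjustment over all 22570 genes. The groups accounted for 25.02% of the variance of Cntfr (adjusted p = 0.133) and 27.7% of that of Il17ra (adjusted p = 0.117), against a median of 17.2% over all genes. At an adjusted p under 0.05, 10.3% of all genes passed this test, and neither receptor gene did. Taken singly, the vector accounted for 14.9% of the variance of Cntfr and 19.9% of that of Il17ra, and the drug for 7.48% and 1.11%.

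The drug, the vectors and their interactions were then compared in 12 contrasts of the same limma fit. Several share a group of rats, so that each is given by its own values. A gene counted as differentially expressed (DEx) when its adjusted p was under 0.05 and its log2 fold change exceeded 0.2 in either direction. Neither Cntfr nor Il17ra was a DEx gene in any of the 12.

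The difference farthest from 0 of both genes, among the 9 between pairs of groups, was that of H3.3 WT vs. empty in saline rats. Both genes are also listed in a supplementary table that the study ordered by this contrast, which served to name genes here, so their place in it is a description and not independent of how they were chosen. Cntfr was 0.42 higher (SE 0.15, 95% confidence interval 0.12 to 0.71, a fold of 1.34), with an unadjusted p = 0.0069 and an adjusted p = 0.193 in limma. Il17ra was 0.19 higher (SE 0.068, interval 0.054 to 0.33, a fold of 1.14), with an unadjusted p = 0.0074 and an adjusted p = 0.193. This contrast had 0 DEx genes (0%) in limma and 0 with voom on the recovered reads, although 3788 genes had an unadjusted p under 0.05, and 3.50% and 3.79% of all genes had a lower p than Cntfr and Il17ra. Without saline H3.3 WT rat 49 the Cntfr difference was 0.33 (adjusted p = 0.474), and without rat 27 it was 0.50 (adjusted p = 0.0639).

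H3.3Q5A vs. empty in saline rats was a contrast with many DEx genes, 4.94% of those tested. There Cntfr was 0.28 higher in H3.3Q5A rats (SE 0.15, interval -0.019 to 0.57, adjusted p = 0.247 in limma), with 5 of 7 rats above the empty mean. Il17ra was 0.12 higher (SE 0.068, interval -0.022 to 0.25, adjusted p = 0.304). Between H3.3Q5A and H3.3 WT in saline rats, where 0.00886% of genes were DEx, Cntfr differed by -0.14 (SE 0.15) and Il17ra by -0.076 (SE 0.068), with adjusted p = 0.765 and 0.724.

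In heroin rats, H3.3Q5A vs. empty had 3.21% DEx genes. Il17ra was 0.15 higher in H3.3Q5A rats (SE 0.064, interval 0.025 to 0.28), with 7 of 8 rats above the empty mean, an unadjusted p = 0.0202 and an adjusted p = 0.160 in limma. This value leaned on H3.3Q5A rat 21, without which it was 0.095 (adjusted p = 0.322). Cntfr was 0.12 higher (SE 0.14, interval -0.16 to 0.39, adjusted p = 0.703). Of H3.3Q5A vs. H3.3 WT, with 2.71% DEx genes, the differences were 0.097 for Il17ra (SE 0.066, adjusted p = 0.486), or 0.038 without rat 21, and -0.037 for Cntfr (SE 0.14, adjusted p = 0.937). H3.3 WT vs. empty in heroin rats had 0 DEx genes (0%) in limma and 0 with voom, with 1277 genes at an unadjusted p under 0.05. Cntfr was 0.15 higher (SE 0.14) and Il17ra 0.057 higher (SE 0.066) there, with adjusted p = 0.886 and 0.904.

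Heroin vs. saline was compared within each vector. In H3.3 WT rats, with 2.75% DEx genes, Cntfr was at -0.29 in heroin rats (SE 0.15, interval -0.59 to 0.0081, adjusted p = 0.335 in limma). Il17ra was at -0.13 (SE 0.068, interval -0.27 to 0.0052, adjusted p = 0.341). Only 1 of 7 heroin rats was above the saline mean for Cntfr, and 2 of 7 for Il17ra, in these H3.3 WT groups.

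In empty rats, with 0.155% DEx genes, the log2 fold changes of heroin vs. saline were -0.024 for Cntfr (SE 0.14, interval -0.31 to 0.26) and 0.0022 for Il17ra (SE 0.066, interval -0.13 to 0.14), with adjusted p = 0.957 and 0.994. In H3.3Q5A rats, with 0.505% DEx genes, they were -0.18 for Cntfr (SE 0.14, adjusted p = 0.4996) and 0.040 for Il17ra (SE 0.066, adjusted p = 0.790), and the latter was -0.019 without heroin rat 21. In empty rats the interval of Cntfr reached beyond the DEx limit of 0.2 in both directions, whereas that of Il17ra stayed within it.

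**Figure D2:**
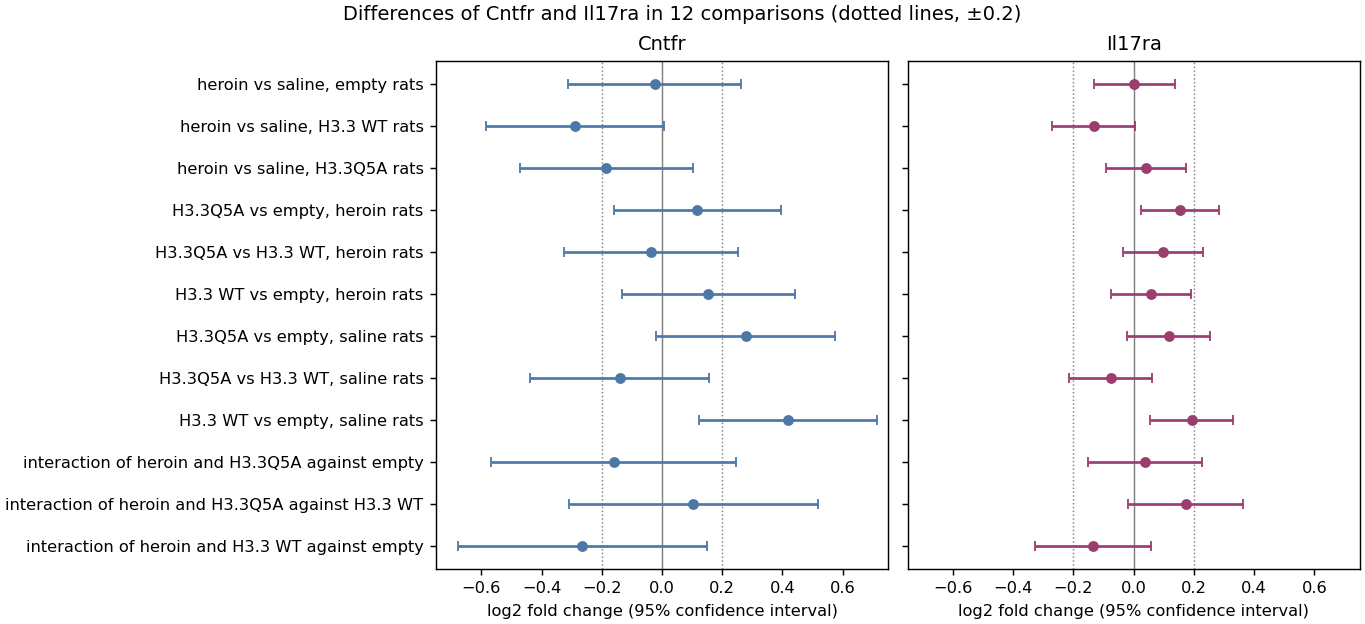
Log2 fold changes (x axis, points) with 95% confidence intervals (bars) of Cntfr (left) and Il17ra (right) in the 12 comparisons listed on the y axis, from the limma fit of all 6 groups; dotted lines mark 0.2 in each direction. The farthest point from 0 for both genes is H3.3 WT vs. empty in saline rats, at 0.42 and 0.19, and the intervals of Cntfr are wider than those of Il17ra.

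Whether the vector changed the effect of heroin was asked with interactions, the heroin vs. saline difference under one vector minus that under another. For H3.3Q5A against empty, where 14% of all genes were DEx, the interaction was -0.16 for Cntfr (SE 0.20, adjusted p = 0.661 in limma) and 0.038 for Il17ra (SE 0.093, adjusted p = 0.841), or -0.021 for Il17ra without heroin H3.3Q5A rat 21. For H3.3Q5A against H3.3 WT, with 7.93% DEx genes, it was 0.10 for Cntfr (SE 0.20, adjusted p = 0.840) and 0.17 for Il17ra (SE 0.095, adjusted p = 0.302), or 0.11 without that rat. For H3.3 WT against empty the interaction was -0.26 for Cntfr (SE 0.20) and -0.13 for Il17ra (SE 0.095), both with adjusted p = 0.908. That contrast had 0 DEx genes (0%) in limma and 0 with voom, with 1137 genes at an unadjusted p under 0.05.

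Cntfr spread widely within groups. Its within-group SD was 0.29, above that of 94.2% of the 500 genes nearest to it in mean value, whose median was 0.12. Il17ra had an SD of 0.13, above 48.8% of its own 500 neighbours, with a median of 0.13. The deviations of all genes from their group means were therefore split into axes that each carry a pattern shared over the rats. The first 3 carried 21.97%, 10.4% and 9.61% of the within-group variance of all genes. Of Cntfr's own within-group variance, axis 2 carried 65.3% and axis 3 24.1%, while axis 1 carried 0.046%. Of Il17ra's, axis 1 carried 15%, axis 2 13% and axis 3 0.81%.

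The first 3 axes were then used as covariates, a fit akin to the RUVr step of the study. The study's number of factors is not given in the sources used here. Axes of deviations from group means cannot change differences between groups, so the differences stayed the same by construction. Cntfr passed the DEx rule in 4 comparisons. These were H3.3 WT vs. empty in saline rats (0.42, adjusted p = 1.93e-07 in limma, with 8.54% of all genes DEx in this fit), H3.3Q5A vs. empty in saline rats (0.28, adjusted p = 5.96e-05, 13.9%), heroin vs. saline under H3.3 WT (-0.29, adjusted p = 6.17e-05, 8.25%) and the interaction of heroin and H3.3 WT against empty (-0.26, adjusted p = 0.0400, 1.58%). Heroin vs. saline under H3.3Q5A had an adjusted p = 0.00566 for Cntfr with 3 axes, but its difference of -0.18 was below the limit of 0.2. With 1 axis no comparison of Cntfr passed, and the lowest adjusted p was 0.101. The axes come from the same values and carry most of Cntfr's own deviations, so these calls are not independent of that choice. For H3.3 WT vs. empty in saline rats the SE of Cntfr was 0.051 with 3 axes, against 0.15 without. The p-values of Cntfr in this fit are therefore descriptions of it and not error rates. Il17ra had an adjusted p = 0.0192 for H3.3 WT vs. empty in saline rats and 0.0448 for H3.3Q5A vs. empty in heroin rats with 3 axes, but its differences of 0.19 and 0.15 were below the limit of 0.2.

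**Figure D3:**
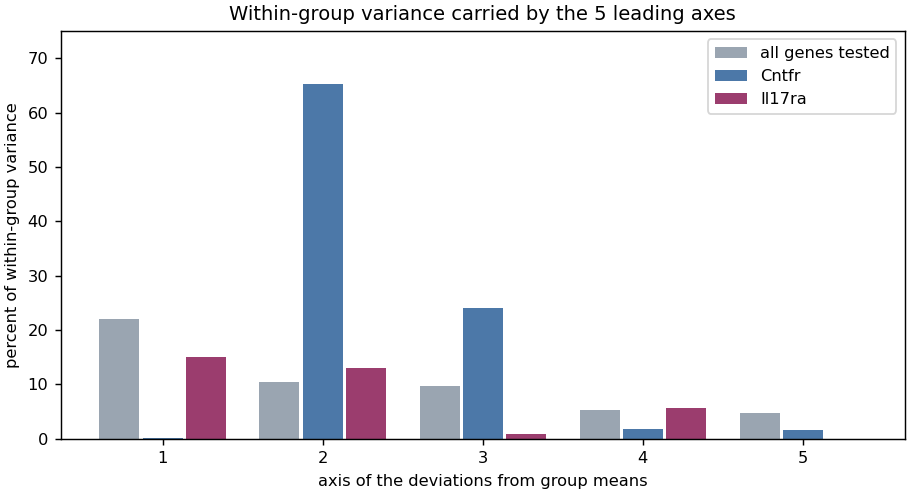
Percent of within-group variance (y axis) carried by each of the 5 leading axes of the deviations from group means (x axis), for all genes tested (grey), Cntfr (blue) and Il17ra (purple). Cntfr lies on axes 2 and 3 (65.3% and 24.1%) and hardly on axis 1, while Il17ra has at most 15% on any of them.

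Over the 44 rats the values of the pair were moderately correlated, with Pearson r = 0.45 (permutation p = 0.00196, adjusted p = 0.0066 over 4 relations) and Spearman rho = 0.44 (permutation p = 0.0033, adjusted p = 0.0066). Deviations from group means gave r = 0.32 (permutation p = 0.0320, adjusted p = 0.0320) and rho = 0.39 (permutation p = 0.0103, adjusted p = 0.0138). Without saline H3.3 WT rat 49 and heroin empty rat 16, the farthest from the Cntfr median, r was 0.34, and without heroin H3.3Q5A rat 21 it was 0.59. Within the saline groups r was 0.73 with the empty vector, 0.65 with H3.3 WT and 0.43 with H3.3Q5A. Within the heroin groups it was 0.51, 0.083 and -0.22 for the same vectors, the last being 0.23 without rat 21. Of the 11 rats highest in Cntfr, 6 were among the 11 highest in Il17ra, and 4 of the 11 lowest were shared. The values of both genes come from the same libraries, and their r with log2 read total was -0.066 for Cntfr and 0.19 for Il17ra.

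Cntfr moved over the rats with a large set of genes. Of the other 22569 genes tested, 882 had r above 0.7 with Cntfr and 802 had r below -0.7, and 56 were beyond 0.9 and 7 beyond -0.9. For Il17ra the counts at 0.7 were 16 and 8, with none beyond 0.9 in either direction. The named genes most like Cntfr over the 44 rats were Agpat1, an acyltransferase of phosphatidic acid synthesis (r = 0.96), Wiz, a zinc finger partner of histone H3K9 methyltransferases (0.95), Eif3k, a subunit of translation initiation factor eIF3 (0.95), RGD1305350 (0.94) and Tmem259 (0.94). Agpat1 ranged from 12.48 to 13.63 over the rats, with r = 0.95 for deviations from group means and 0.96 without rats 49 and 16. The named genes most opposite to Cntfr were Ggnbp2 (r = -0.93), Ppig, a cyclophilin of the splicing machinery (-0.92), and Ncl, the nucleolar protein nucleolin (-0.91).

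Names could be given to 1996 of the other genes tested, from a table the study ordered by the contrast of H3.3 WT vs. empty in saline rats. The named set is richer in genes that move with Cntfr: 37.2% of it had r beyond 0.7 in either direction, against 7.46% of all genes tested. The 441 named genes with r above 0.7 had a median span on rn6 of 12565 bases, the 301 with r below -0.7 had 30196, and all named genes had 20979. Cntfr itself spans 37401 bases.

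The named genes most like Il17ra were Cyba, the p22phox subunit of the phagocyte NADPH oxidase (r = 0.74), Ltbr, the lymphotoxin beta receptor (0.71), Spi1, the myeloid transcription factor PU.1 (0.71), Piezo1, a mechanosensitive cation channel (0.69), and Nfatc1, a calcium-regulated transcription factor (0.69). Without heroin H3.3Q5A rat 21 and saline H3.3 WT rat 50, the farthest from the Il17ra median, r was 0.73 for Cyba and 0.74 for Ltbr, and 0.61 for Spi1 and Piezo1. Rat 21 ranked 1 of 44 for Spi1 (9.41) and Piezo1 (10.02) and 3 for Cyba (9.44), besides its rank of 1 for Il17ra. Among the most opposite were Slc3a1 (r = -0.74), a subunit of an amino acid transporter, and Necap1 (-0.72), a protein of clathrin-coated vesicles. These relations were not particular to Il17ra. Nfatc1 and Necap1 were closer to Cntfr, with r = 0.78 and -0.77. The r with Cntfr was 0.52 for Cyba, 0.65 for Ltbr, 0.60 for Spi1, 0.48 for Piezo1 and -0.65 for Slc3a1.

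**Figure D4:**
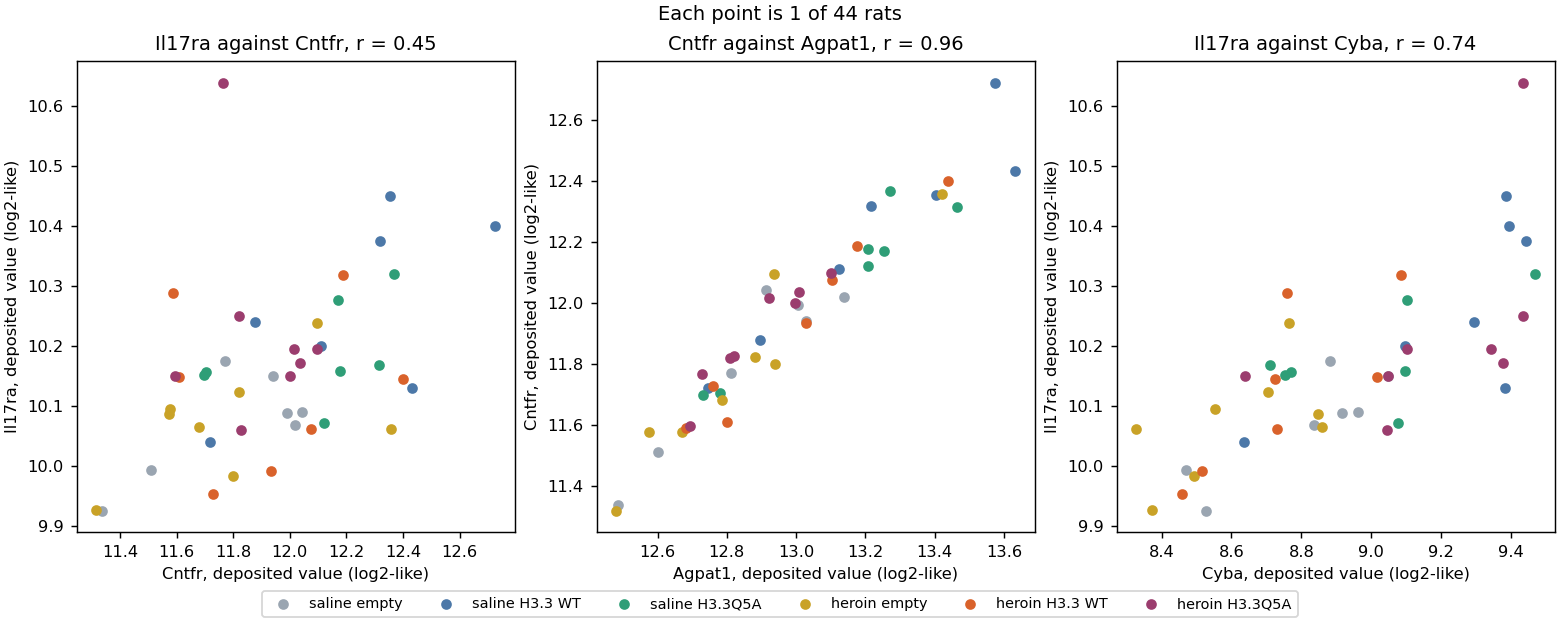
Deposited values (log2-like scale) of Il17ra against Cntfr (left), Cntfr against Agpat1 (middle) and Il17ra against Cyba (right), with each point 1 of 44 rats colored by group. Cntfr and Agpat1 lie close to a line in all groups (r = 0.96), Il17ra and Cyba less so (0.74), and the pair of receptor genes is loosely related (0.45) with heroin H3.3Q5A rat 21 far above the others on the left and right.

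Few of the partners of these receptors could be named. None of 8 ligands of the CNTF receptor family, 5 receptor chains of the CNTF receptor complex and its relatives, 6 IL-17 ligands or 4 other IL-17 receptor chains had a name in the tables used here. Of 13 genes listed for JAK-STAT signaling only Pias3, an inhibitor of STAT3, was named, and of 14 IL-17 adaptors and kinases only Traf4. Of 14 genes listed for NF-kB and IL-17 effectors, 3 were named: Relb, an NF-kB subunit, and Nfkbia and Nfkbib, which hold NF-kB in the cytoplasm. None of these 5 genes was DEx in any of the 12 comparisons.

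These 5 could be named only because they stand in the table ordered by H3.3 WT vs. empty in saline rats, so low p-values in that contrast, where 0% of genes were DEx, were favoured beforehand. The lowest there was that of Relb, at 0.27 (SE 0.059, unadjusted p = 4.36e-05, adjusted p = 0.191 in limma). Relb was between 7.76 and 8.06 in saline empty and between 7.98 and 8.27 in saline H3.3 WT rats, which overlap only slightly. The values of Pias3 (0.14, SE 0.059) and Traf4 (0.26, SE 0.081) had adjusted p = 0.245 and 0.191 in this contrast. Over the 44 rats r with Cntfr was 0.91 for Nfkbib, 0.83 for Traf4, 0.63 for Relb, 0.57 for Pias3 and 0.12 for Nfkbia.

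Of 33 other cytokine and chemokine receptor genes, 3 were named, from the same table. Of these, 2 were DEx in H3.3Q5A vs. empty of saline rats, where 4.94% of all genes were, and 1 in the interaction of H3.3Q5A against empty, where 14% were. Both contrasts use the saline empty rats, which also entered the contrast that ordered the table. The share over all genes is therefore not a matched background for named genes. Tgfbr2, the type II receptor for TGF-beta, rose in saline H3.3Q5A vs. saline empty rats by 0.39 (SE 0.11, adjusted p = 0.0332 in limma), from 9.53 ± 0.17 to 9.92 ± 0.16 (SD, n = 7 in each group). Cx3cr1, the fractalkine receptor of microglia, rose in the same contrast by 0.49 (SE 0.12, adjusted p = 0.0201), from 10.05 ± 0.16 to 10.54 ± 0.24. Its H3.3Q5A interaction against empty was -0.50 (SE 0.17, adjusted p = 0.0369). Crlf2, a chain of the TSLP receptor, was not DEx in any comparison, and its difference farthest from 0 was -0.32, between heroin and saline H3.3 WT rats (SE 0.12, adjusted p = 0.169). The r of Tgfbr2 and Cx3cr1 with Il17ra was 0.65 for both, and that of Crlf2 with Cntfr was 0.82.

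Markers of other cells moved with these genes to differing degrees. Cx3cr1 was the single named marker of 10 for microglia, and its r with Il17ra was 0.65 over all rats and 0.68 for deviations from group means. It ran after saline from 9.83 to 10.26 with the empty vector, from 10.18 to 10.86 with H3.3 WT and from 10.28 to 10.92 with H3.3Q5A, and after heroin from 10.09 to 10.44, from 10.26 to 10.71 and from 9.94 to 11.07. Heroin H3.3Q5A rat 21, the highest in Il17ra, also ranked 1 for Cx3cr1, at 11.07 against a group median of 10.15. Both r values of Cx3cr1 with Il17ra include this rat. Of 7 genes listed for oligodendrocyte precursors, 5 could be named: Cspg4, Olig1, Olig2, Sox10 and Gpr17. They are taken here as genes of the oligodendrocyte lineage, since not all are particular to precursors. Singly, their r with Cntfr ran from 0.47 (Olig2) to 0.69 (Gpr17). After saline their summed level ran from 13.88 to 14.81 (empty), from 14.46 to 15.24 (H3.3 WT) and from 14.75 to 15.09 (H3.3Q5A). After heroin it ran from 14.25 to 15.12, from 14.38 to 15.22 and from 14.05 to 14.85 for these vectors, with r = 0.61 with Cntfr and 0.39 with Il17ra. Hspb1, a stress-induced chaperone and the single named gene of 7 listed for the response to injection, had r = 0.77 with Cntfr and 0.60 with Il17ra. Its medians for empty, H3.3 WT and H3.3Q5A vectors were 10.01, 10.60 and 10.07 after saline and 9.53, 9.58 and 10.13 after heroin. Saline H3.3 WT rat 49, the highest in Cntfr, ranked 1 of 44 for Hspb1 (11.09), for the lineage sum (15.24) and for the sum of the 2 endothelial markers named of 8 (11.73). That endothelial sum ran from 10.79 to 11.21 in saline empty rats and from 10.95 to 11.73 in saline H3.3 WT rats, with r = 0.51 with Cntfr and 0.58 with Il17ra. The sums of the markers named for myelin (8 of 12), for meningeal and mural cells (4 of 10) and for the pituitary (2 of 6) had r of 0.23, 0.36 and 0.0037 with Cntfr and 0.22, 0.38 and -0.031 with Il17ra. Some of these markers were DEx in the fit without axes, in which Cntfr was not. They were named from the table ordered by H3.3 WT vs. empty in saline rats. That contrast shares saline rats with the comparisons below. Passes of Cntfr with 3 axes only describe that fit, since the axes carry most of its own deviations. Among the contrasts it passed in were H3.3 WT vs. empty of saline rats and the H3.3 WT interaction against empty. Those had 0 DEx genes (0%) without axes. In heroin vs. saline of H3.3 WT rats, where 2.75% of all genes were DEx, all 4 named meningeal and mural markers were lower and DEx. Their median log2 fold change was -1.69, against 0.0013 over all genes. Their sum ran from 12.26 to 13.93 in saline and from 11.48 to 12.53 in heroin rats. Hspb1 was also lower and DEx in that contrast (-0.84), as was 1 of the 2 endothelial markers (median -0.30). No named myelin, lineage, microglial or pituitary marker was DEx there. In H3.3Q5A vs. empty of saline rats, where 4.94% of all genes were DEx, 6 of the 8 named myelin markers were DEx and higher. The median of the 8 was 0.67, against -0.012 over all genes. Of the 5 lineage genes (median 0.59), 3 were DEx and higher. The myelin sum ran from 18.97 to 20.14 in saline empty and from 19.68 to 20.27 in saline H3.3Q5A rats. Cx3cr1 and 1 of the 2 endothelial markers (median 0.21) were also DEx and higher in this contrast. Hspb1 (0.29) and the named meningeal, mural and pituitary markers were not DEx in it. In the H3.3Q5A interaction against empty, where 14% of all genes were DEx, all 8 myelin markers were DEx and negative (median -1.09). Cntfr did not pass in that interaction with 3 axes. The part of these cells in the levels of Cntfr and Il17ra was not tested.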

How the data were processed

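Reads from 2 flow cells were joined per library. The authors aligned them with HISAT2 2.1.0 to rn6 (Rnor_6.0, Ensembl annotation), removed multiply aligned reads, counted with featureCounts 2.0.1 and normalized with DESeq2 2.11.40.6, as named in the methods and the submitters' processing notes. For 45 libraries the authors deposited counts after a variance-stabilizing transformation, in log2-like units, with 5.73 for a count of 0. Undoing the transformation returned whole reads, within 0.1, for 100% of low values. CPM values are these reads divided by the library total.

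Both genes, the gene lists and the tests were chosen with earlier results of these data known. Values were fitted in R 4.3.3 with limma 3.58.1 (all 6 groups, variance trend, Benjamini-Hochberg adjustment) on the 22570 genes with reads in 7 or more libraries. The deposited unit is not counts, and no count model was fitted to the recovered reads. Among the fits, these reads entered only voom and, as library totals, the one with log2 read total. They also gave the read numbers, library totals and CPM. Each library is 1 rat. A further saline library, whose title and treatment labels name different vectors, was in no group. Permutation p-values used 100000 resamples and are two-sided. They were added after the data were examined, as were a fit with log2 read total and one without saline empty rat 18 and heroin H3.3 WT rat 11, which stood apart for other genes in those earlier results. Other alternatives were 1 or 3 residual axes, gene filters, array weights, median centring, quantile normalization, separate fits of the groups compared, rat number as a covariate, other thresholds, both readings of the unassigned library and leaving out each rat.

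Named genes were list members that were called or had the lowest p, and for each receptor gene the 5 named genes with the highest and the 3 with the lowest r, of which 1 is not reported here. Names and rn6 positions came from 1998 readable rows of a supplementary table, whose statistics were not used. Scripts were tested on simulated data. No RefSeq promoter was matched to either gene, and no sequence is shown.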

Additional observations from a re-analysis of the deposited data

Results flagged for a closer look

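Il17ra in heroin H3.3Q5A rat 21 was far from the rest of its group, at 10.64 (35.99 CPM), while the other 7 rats lay between 10.06 and 10.25. The gap to the nearest rat was 0.67 of the group's whole range. Of 12 groups examined (6 for each gene) this was the single one flagged, and chance flags about 0.6. The same rat had the highest Cx3cr1 (11.07), Spi1 (9.41) and Piezo1 (10.02) of all 44 rats, while its Cntfr-like genes Agpat1 and Wiz ranked 37 and 33. The part of these genes in its Il17ra value was not tested.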

How the results depend on the processing

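Over 16 alternatives and the fits that left out 1 rat each, 794 of the 824 refitted values of Cntfr and Il17ra kept their direction and their side of the DEx rule. The exceptions outside the fits without 1 rat were as follows. Median centring, which moved the median of all genes by -0.12 in both H3.3Q5A interactions and by less than 0.1 in the other contrasts, turned heroin vs. saline of Cntfr in empty rats to 0.039 and of Il17ra in H3.3Q5A rats to -0.017, and the H3.3Q5A interactions to -0.082 for Il17ra against empty and -0.016 for Cntfr against H3.3 WT. Array weights gave -0.00586 for Il17ra (heroin vs. saline, empty) and 0.0053 for Cntfr (H3.3Q5A vs. H3.3 WT, heroin). Rat number as a covariate gave 0.038 for Cntfr and -0.0060 for Il17ra, voom gave -0.00588 for Il17ra, and the fit without saline empty rat 18 and heroin H3.3 WT rat 11 gave 0.016 for Cntfr, all in heroin vs. saline of empty rats. With 3 residual axes Cntfr passed the DEx rule at 0.42 (H3.3 WT vs. empty, saline), 0.28 (H3.3Q5A vs. empty, saline), -0.29 (heroin vs. saline, H3.3 WT) and -0.26 (interaction, H3.3 WT against empty). The spread fell in that fit, while the differences stayed by construction. Over the alternatives the adjusted p of Cntfr in H3.3 WT vs. empty of saline rats was 1.93e-07 to 0.328, and that of Il17ra 0.0192 to 0.328. The cause of the other changes was not tested.

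Leaving out 1 rat changed a direction in 5 results: heroin vs. saline in empty rats (-0.11 to 0.041 for Cntfr, -0.022 to 0.023 for Il17ra), H3.3Q5A vs. H3.3 WT in heroin rats for Cntfr (-0.094 to 0.041), and, for Il17ra without heroin H3.3Q5A rat 21, heroin vs. saline in H3.3Q5A rats (-0.019 to 0.064) and the H3.3Q5A interaction with heroin against empty (-0.021 to 0.062). No such fit made either gene DEx. The number of DEx genes depended far more on the setting. Over all settings it was 0 to 2322 for heroin vs. saline in empty rats (35 as reported), 183 to 1862 in H3.3 WT rats (620) and 0 to 2412 in H3.3Q5A rats (114). In heroin rats it was 130 to 2388 for H3.3Q5A vs. empty (724), 0 to 2190 for H3.3Q5A vs. H3.3 WT (611) and 0 to 195 for H3.3 WT vs. empty (0). In saline rats these were 166 to 3146 (1116), 0 to 1292 (2) and 0 to 1927 (0). The interactions had 2254 to 5327 for H3.3Q5A against empty (3149), 1182 to 3760 for H3.3Q5A against H3.3 WT (1790) and 0 to 356 for H3.3 WT against empty (0). No paired analysis was possible because the labels pair no libraries, and each library was taken as its own rat. Rat number 13 recurs in saline empty and heroin empty rats, and 21 in heroin empty and heroin H3.3Q5A rats. A depth limit was not tested. The lowest read numbers in a library were 579 for Il17ra and 1733 for Cntfr.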

Other observations

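The saline library of rat 48, whose labels name H3.3Q5A in one place and H3.3 WT in another, had 25733715 reads on genes. Its Cntfr value was 11.74 (2063 reads) and its Il17ra value 9.96 (559 reads).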
